A study of Rattus norvegicus with 20 samples.

Results

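BYA rats, exposed to betamethasone before birth, made to spasm and treated with ACTH, were compared with SNS rats, which had received saline at every step, in the arcuate nucleus of the hypothalamus at postnatal day 15. The comparison covers 8 of the 20 samples of the series, 4 BYA and 4 SNS, and 13292 of the 16899 genes with a named spot, namely those with at least 3 values in every group. All rats were male Sprague-Dawley pups. The dams of the BYA pups were given 2 injections of betamethasone, a synthetic glucocorticoid that crosses the placenta, at 0.4 mg/kg on gestation day 15, and the dams of the SNS pups were given saline. BYA pups then received N-methyl-D-aspartate (NMDA), an agonist of glutamate receptors that triggers spasms, on postnatal days 12, 13 and 15. They were treated with ACTH on postnatal days 13, 14 and 15 by the labels, whereas by the study's methods the treatment began after the first trigger. SNS pups had no spasms and were treated with saline. BYA therefore differed from SNS in betamethasone, NMDA-triggered spasms and ACTH together, and what each contributed cannot be told apart from this comparison. Beside it stand BNS (betamethasone, no spasms, saline), BYS (betamethasone, spasms, saline) and BYP (betamethasone, spasms, the C5ar1 blocker PMX53), with 4 male rats each. The labels do not say which pups came from one litter.

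The arcuate nucleus lies beside the median eminence and holds neurons that sense nutrients and hormones and govern feeding, growth and reproduction. One set of its neurons makes Pomc, the precursor of ACTH and of the melanocortins, and another makes Agrp and Npy, which drive feeding. ACTH is the first-line drug against infantile spasms. It acts on the adrenal cortex through Mc2r, which raises circulating glucocorticoid, and it also binds the melanocortin receptors of the brain. Neurons that fire strongly switch on immediate early genes such as Fos and Egr1 within minutes, and glucocorticoids switch on genes such as Fkbp5 and Sgk1 through the glucocorticoid receptor Nr3c1.

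The 20 samples lay on 11 arrays of 6 slides. Of these arrays 9 held a sample labelled Cy3 and another labelled Cy5, whereas SNS replicates 1 and 2 each lay on an array with no other sample analysed here. The samples had a value at 34107 to 44249 of 44254 spots. The 4 BYA samples filled both arrays of a slide of their own, and no SNS sample lay on it, so slide and group cannot be told apart. SNS replicate 2 is labelled Cy5 but was like the Cy3 samples in its number of spots with a value and in its dim spots. It was the only sample analysed on its slide, and the other SNS samples lay on another. It had a value at 44159 spots, where the other Cy5 samples had 34107 to 39968 and the Cy3 samples 42678 to 44249. Its 5th percentile of intensity was 0.075, where the other Cy5 samples had 0.0233 to 0.0378 and the Cy3 samples 0.0745 to 0.191. In the brightest 10% of genes its median deviation from the gene means was 0.00095. That was above the Cy3 samples (at most -0.0494) and below the other Cy5 samples (at least 0.165). Counts are therefore given with the labels as they stand, with this sample taken as Cy3, and without it. Levels below are log2 of the deposited intensity less the sample's median, so that a level of 0 is the median gene, and differences are log2 BYA minus SNS ± SE of the limma fit, n = 4 rats per group. Of the 8 arcuate markers listed, 6 were bright in both groups. Pomc lay at percentile 97.6 of the genes in BYA and 96.2 in SNS, Agrp at 98.4 and 98.5, and Npy at 99.2 and 99.4, while Th, Cartpt and Tac3 lay between 85.7 and 94.2. Ghrh lay lower, at 67.8 and 67.7, and Kiss1 was below the median gene, at 36.1 and 33.2. Pmch, made by neurons of the neighbouring lateral hypothalamus, lay at 97.9 in both, and Hdc, of histamine neurons in the tuberomammillary nucleus, at 88.6 and 92.0. The other markers of neighbouring nuclei that were tested lay lower. Avp was at 67.4 and 55.4, Oxt at 55.1 and 55.3, Hcrt at 38.7 and 35.2, and Nr5a1 at 19.1 and 23.2. Neurod6 of the cortex lay at 2.35 and 4.46, and Cga of the pituitary at 14.3 and 25.1. Tbr1 of the cortex and Gh1, Prl and Tshb of the pituitary were not among the genes tested.

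At an adjusted p under 0.05 in limma with Benjamini-Hochberg adjustment, 3 of 13292 genes passed, 0.0226% of those tested. Mon2 rose, and Tubb2b and Dhrs7 fell. With SNS replicate 2 as Cy3 the count was 5, or 0.0376%, with Vps4b and Vegfc as further decreases, and without that sample it was 11, or 0.0828%, with 8 increases and 3 decreases. An unadjusted p under 0.05 was reached by 2102 genes, of which 780 were higher in BYA, or 5.87% of the genes tested, and 1322 were lower, or 9.95%. With SNS replicate 2 as Cy3, 1523 genes reached it, 859 of them higher, and without that sample 1859 did, 959 of them higher. The larger number of lower genes was thus seen only with the labels as they stand. A difference above 0 was found at 44.2% of genes with those labels, and at 7059 of 13292 with SNS replicate 2 as Cy3. Percentages of all genes given below are for the labels as they stand. All 4 BYA samples lay above all 4 SNS samples at 568 genes (4.27%) and below them at 288 (2.17%). No gene passed in limma when BYA and SNS were fitted alone (919 at an unadjusted p under 0.05), or with the slide as a random block (1219).

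Mon2 encodes a scaffold protein of transport between endosomes and the Golgi apparatus. Its levels were -1.03, -1.21, -0.87 and -0.48 in the BYA samples and -2.18, -2.43, -2.03 and -2.04 in the SNS samples. Every BYA sample was above every SNS sample, and the distance between the groups was larger than the spread within either. Mon2 rose by 1.30 ± 0.16, a 2.46-fold difference (95% interval 0.95 to 1.64, adjusted p = 0.00332, limma). It was dim in SNS, at percentile 14.6 of the genes, and lay at 39.8 in BYA. The values of Mon2, Tubb2b and Dhrs7 each rest on 1 spot.

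Tubb2b encodes a beta-tubulin that is abundant in developing neurons and is needed for their migration. The BYA samples stood at 5.40, 6.02, 5.31 and 5.55 and the SNS samples at 6.26, 6.74, 6.34 and 6.74. The groups did not overlap, and within each group both samples labelled Cy5 were above both labelled Cy3. Tubb2b fell by 0.95 ± 0.16, 1.93-fold (95% interval -1.28 to -0.62, adjusted p = 0.0402, limma). It was the only member called among 18 tubulins, where 0.0226% of all genes were called. Of the 18, 11 had a difference above 0 (median 0.10), against 44.2% of all genes. With SNS replicate 2 as Cy3, 8 were above 0 (median -0.10), against 7059 of 13292 genes.

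Dhrs7 encodes a short-chain dehydrogenase/reductase of the endoplasmic reticulum. Its levels were 0.57, 1.02, 0.50 and 1.04 in BYA against 1.34, 1.71, 1.30 and 1.77 in SNS. Both Cy3 BYA samples lay below both Cy5 BYA samples, and all 4 lay below SNS. Dhrs7 fell by 0.75 ± 0.12, 1.68-fold (adjusted p = 0.0402, limma). Mon2 stayed called when any 1 of the 8 samples was left out, whereas Tubb2b and Dhrs7 stayed called only without SNS replicate 2 or without BYA replicate 2.

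**Figure D1:**
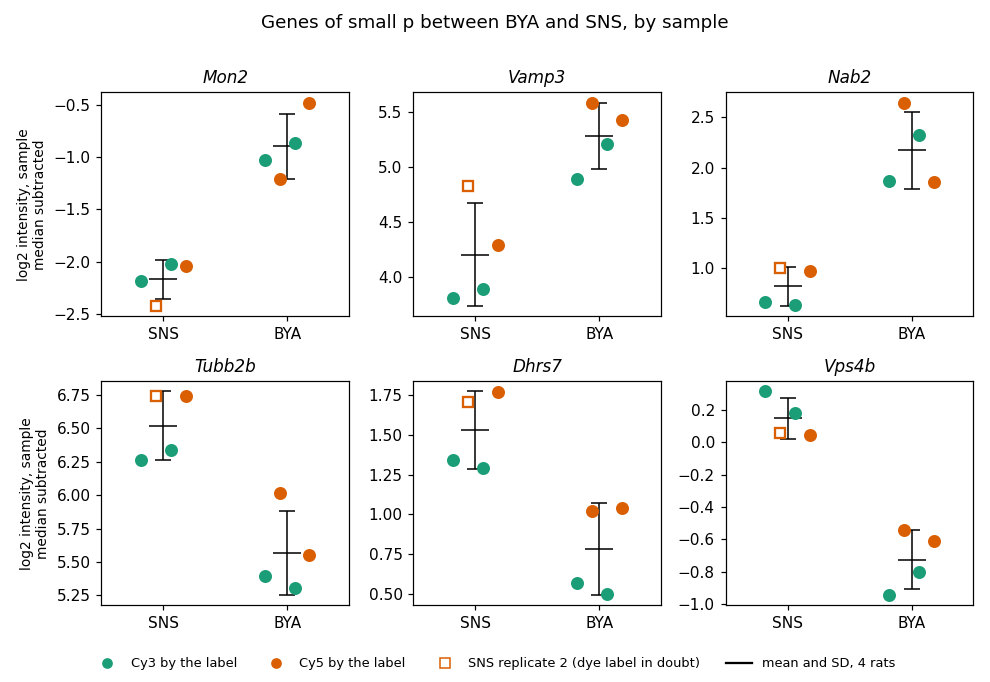
Level (log2 intensity, sample median subtracted) of 6 genes in each of the 4 SNS and 4 BYA samples, coloured by the dye on the label, with the mean and SD of each group. The open square is SNS replicate 2, and in each of the 6 panels the BYA and SNS samples do not overlap, with Mon2, Vamp3 and Nab2 higher and Tubb2b, Dhrs7 and Vps4b lower in BYA.

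The promoters of the 3 called genes are shown because they are the genes on which the count rests. Each is the stretch from 250 bases before to 50 bases after the start of the gene in RefSeq (build GRCr8), read 5′ to 3′ on the gene's strand. Capitals mark TGACG on either strand, the core of the site bound by CREB. They also mark TATAAA, the word of the TATA box, on either strand and at any place in the window. Marked words are matches of sequence only, and whether they act as sites was not tested.
Mon2: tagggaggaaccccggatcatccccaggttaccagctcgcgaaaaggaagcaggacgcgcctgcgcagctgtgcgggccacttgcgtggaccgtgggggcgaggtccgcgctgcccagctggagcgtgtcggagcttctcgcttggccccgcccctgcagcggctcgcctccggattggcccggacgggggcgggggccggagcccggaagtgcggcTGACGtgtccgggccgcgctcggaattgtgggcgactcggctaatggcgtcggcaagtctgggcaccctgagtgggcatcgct
Tubb2b: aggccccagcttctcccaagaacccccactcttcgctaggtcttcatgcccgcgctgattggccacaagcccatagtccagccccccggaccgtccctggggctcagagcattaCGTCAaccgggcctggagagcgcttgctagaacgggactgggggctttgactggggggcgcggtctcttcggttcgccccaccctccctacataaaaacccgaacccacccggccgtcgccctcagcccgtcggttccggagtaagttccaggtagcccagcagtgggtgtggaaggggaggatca
Dhrs7: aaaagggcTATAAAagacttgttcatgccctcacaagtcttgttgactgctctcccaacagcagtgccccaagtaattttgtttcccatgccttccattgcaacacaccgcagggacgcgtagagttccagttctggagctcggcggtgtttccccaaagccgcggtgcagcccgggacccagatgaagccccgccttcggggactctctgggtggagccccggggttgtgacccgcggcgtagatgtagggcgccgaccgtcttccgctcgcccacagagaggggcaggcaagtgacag
They lie at chr7:60613418-60613717 (minus strand), chr17:30952836-30953135 (plus strand) and chr6:97083695-97083994 (minus strand). TGACG stood 33 bases before the start of Mon2 and, on the other strand, 136 bases before that of Tubb2b, and 21.2% of the 33469 promoters of the table hold it. TATAAA stood 242 bases before the start of Dhrs7, and 14.2% of all promoters hold it. AGAACA, one arm of the palindrome that the glucocorticoid receptor binds, was searched on both strands as well and is not in these 3 windows, while 20.7% of all promoters hold it.

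The 3 genes differed in how the other groups stood. Mon2 was also above SNS in rats that never received ACTH, with differences from SNS of 1.18 ± 0.16 in BNS, 1.60 ± 0.16 in BYS and 1.10 ± 0.16 in BYP (adjusted p = 0.013, 1.86e-05 and 0.0333), and BYA minus BNS was 0.12 ± 0.17 (adjusted p = 0.903). These 4 comparisons share the SNS samples. Dhrs7 was lower in BYA than in every other group. BYA minus BNS was -0.93 (adjusted p = 0.00319), BYA minus BYS -0.76 (adjusted p = 9.95e-04) and BYA minus BYP -0.99 (adjusted p = 0.00422). Tubb2b was likewise lower, with -0.95 for BYA minus BNS (adjusted p = 0.0201), -0.61 for BYA minus BYS (adjusted p = 0.0282) and -1.02 for BYA minus BYP (adjusted p = 0.0208). The background of these contrasts was 0.241% of genes called in BYA against BNS, 8.67% against BYS and 0.0301% against BYP. BYA, BNS, BYS and BYP each lay on a slide of its own.

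**Figure D2:**
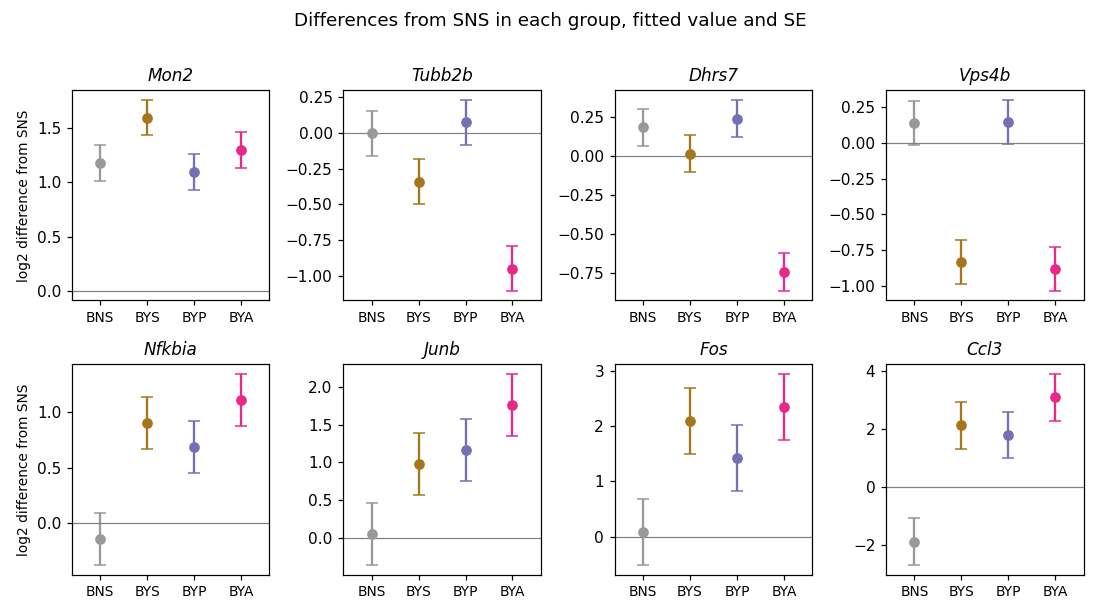
Log2 difference from SNS in BNS, BYS, BYP and BYA for 8 genes (fitted value and SE, 4 rats per group; all 4 differences of a gene share the SNS samples). Mon2 is above 0 in all 4 groups, Tubb2b and Dhrs7 are lowest in BYA, and Vps4b is low in both BYS and BYA.

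The genes next in p did not pass and are given as values. Vps4b encodes an ATPase that takes apart the ESCRT-III complex on endosomes. It stood at -0.94, -0.54, -0.80 and -0.61 in BYA and at 0.32, 0.06, 0.18 and 0.04 in SNS, with no overlap. The difference was -0.88 ± 0.15 (adjusted p = 0.0554), and -0.89 with adjusted p = 0.015 with SNS replicate 2 as Cy3. BYS had nearly the same level, since BYA minus BYS was -0.05 (adjusted p = 0.876), while BYA minus BNS was -1.03 (adjusted p = 0.0117). Vegfc, a growth factor of lymphatic vessels, stood at -1.004, -1.31, -1.05 and -1.38 in BYA and at -0.31, -0.28, -0.51 and -0.59 in SNS. The difference was -0.78 ± 0.14 (adjusted p = 0.062, or 0.0348 with that sample as Cy3). The groups did not overlap at either gene.

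The other genes of smallest p with values below SNS did not pass either. Leo1, a subunit of the Paf1 complex that travels with RNA polymerase, differed by -0.88 ± 0.18, and Tma7, of the translation machinery, by -0.59 ± 0.12. Slc16a1, which carries lactate and ketone bodies across the blood-brain barrier, differed by -0.94 ± 0.20, and Slc35a4, a solute carrier, by -0.58 ± 0.13. Elavl4, a neuronal RNA-binding protein, was between 2.11 and 2.84 in BYA and between 3.18 and 3.49 in SNS. Its difference was -0.77 ± 0.18 (adjusted p = 0.192). Groups did not overlap at these 5 genes, and their adjusted p lay between 0.132 and 0.192. Cdh3, a cadherin, at -1.05 ± 0.23, and Chrnb2, a subunit of nicotinic receptors, at -0.70 ± 0.15, were dim, at percentiles 12.8 and 17.1 of the genes in SNS, and with SNS replicate 2 as Cy3 they were -0.68 and -0.38.

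Vamp3, a SNARE protein of recycling endosomes, had the smallest p among values above SNS that did not pass. It stood at 4.89, 5.58, 5.21 and 5.42 in BYA and at 3.81, 4.83, 3.89 and 4.29 in SNS. The lowest BYA sample was just above SNS replicate 2, the highest SNS sample. The difference was 1.05 ± 0.19 (adjusted p = 0.0554, or 0.00358 without SNS replicate 2). Ywhag, a 14-3-3 adaptor protein, differed by 0.81 ± 0.16, Pold4, a subunit of DNA polymerase delta, by 0.77 ± 0.14, and Phf10, of a chromatin remodelling complex, by 0.79 ± 0.18. Pth2, a neuropeptide that activates a parathyroid hormone receptor, was between -0.29 and -0.17 in BYA and between -1.25 and -0.74 in SNS. It differed from SNS by 0.77 ± 0.16 (adjusted p = 0.175) and from BNS by 1.504 ± 0.17 (adjusted p = 3.26e-04). Lrrc25, a membrane protein of myeloid cells, differed from SNS by 0.61 ± 0.14 (adjusted p = 0.192). It was higher in BYA than in BNS by 1.38 (adjusted p = 2.26e-04) and than in BYS by 0.93 (adjusted p = 5.89e-04). Rbm38, an RNA-binding protein of the p53 response, differed from SNS by 0.80 ± 0.18.

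Most immediate early genes measured had values above SNS, and no member passed. Of 37 measured, 30 had a difference above 0, where 44.2% of all genes did, and the median was 0.43 against -0.05 over all genes tested. None of the 37 was called, against a background of 0.0226%. At an unadjusted p under 0.05, 17 were higher and 2 lower, against 5.87% and 9.95% of all genes, and at 13 genes the groups did not overlap, always with BYA above, where 4.27% of all genes lay wholly above SNS and 2.17% wholly below. The mean level of the list lay between 0.189 and 0.538 in BYA and between -0.217 and -0.0254 in SNS. With SNS replicate 2 as Cy3, 34 of the 37 were above 0 and the median was 0.51, with 0 called. Over all genes 7059 of 13292 were then above 0, with a median of 0.02. The median of the list was also above SNS in the other groups with spasms, at 0.41 in BYS and 0.29 in BYP, and it was -0.16 in BNS. These comparisons share the SNS samples.

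Fos, a subunit of the AP-1 factor, stood at 0.10, 1.63, 1.00 and 2.13 in BYA and at -0.89, -1.20, -1.04 and -1.45 in SNS. The BYA samples spread over more than the distance between the groups' nearest samples. The difference was 2.34 ± 0.60 (95% interval 1.10 to 3.59, adjusted p = 0.218). Junb, another AP-1 subunit, was 2.59, 3.57, 2.74 and 3.15 in BYA and 1.35, 1.55, 0.84 and 1.08 in SNS, which gave 1.76 ± 0.41 (adjusted p = 0.192). Egr1, a zinc-finger factor of activated neurons, was 1.24, 2.12, 1.33 and 2.63 in BYA and 0.55, 0.57, 0.59 and 0.57 in SNS. The SNS samples were tight and both Cy5 BYA samples were higher than both Cy3 ones. The difference was 1.26 ± 0.48 (adjusted p = 0.269).

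Nab2, a corepressor that binds Egr1, was between 1.86 and 2.65 in BYA and between 0.64 and 1.01 in SNS, with a difference of 1.35 ± 0.31 (adjusted p = 0.192). Arc, which acts at the synapse on AMPA receptor endocytosis, differed by 0.80 ± 0.25 (adjusted p = 0.253), and Rgs2, a brake on G protein signalling, by 0.67 ± 0.15 (adjusted p = 0.192). Neither gene's groups overlapped. Nr4a1, an orphan nuclear receptor, differed by 0.73 ± 0.39 with overlapping groups. Crem, a CREB family factor, differed by 0.51 ± 0.22 from SNS (adjusted p = 0.291) and by 0.79 from BYS (adjusted p = 0.0401). Beside the values in BYA, Fos differed from SNS by 0.09 in BNS, 2.09 in BYS and 1.42 in BYP, and Junb by 0.05, 0.98 and 1.16. BNS shares the betamethasone with BYA but neither the spasms nor the ACTH. Against BNS, Arc was higher in BYA by 1.33 ± 0.27 (adjusted p = 0.0414, limma). Arc in BNS differed from SNS by -0.54 ± 0.25 (adjusted p = 0.334, limma). Fos at 2.26 ± 0.62 and Junb at 1.71 ± 0.43 did not pass against BNS (adjusted p = 0.177 and 0.13).

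**Figure D3:**
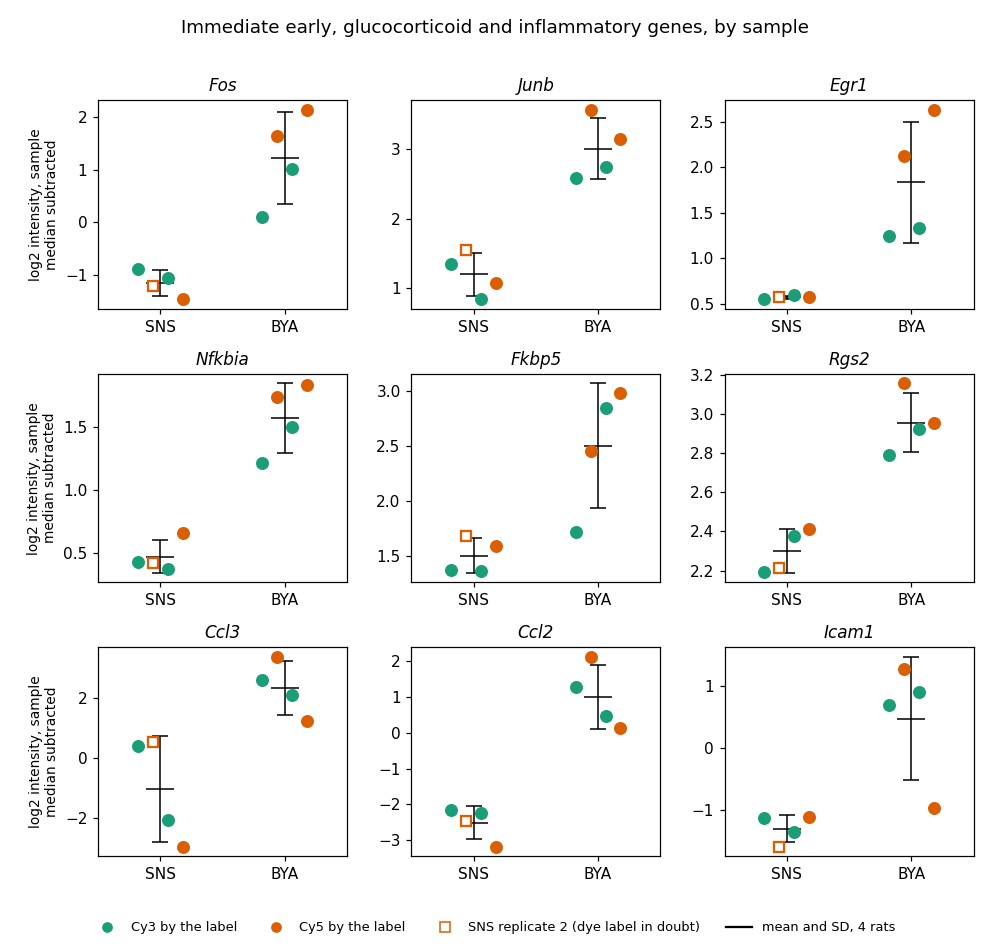
Level (log2 intensity, sample median subtracted) of 3 transcription factors of activated cells, 3 genes of the glucocorticoid and G protein response and 3 inflammatory genes in each SNS and BYA sample, coloured by the dye on the label, with the mean and SD of each group. BYA lies above SNS with no overlap in all 9 panels, with a BYA spread in Fos from 0.10 to 2.13 and an SNS spread in Ccl3 from -2.96 to 0.53.

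The promoters of Junb, Egr1 and Nfkbia are shown as members whose BYA values all lay above those of SNS. The table did not match Fos or Arc. Capitals mark the same words and, on either strand, the serum response element and the kappaB site, which binds NF-kappaB.
Junb: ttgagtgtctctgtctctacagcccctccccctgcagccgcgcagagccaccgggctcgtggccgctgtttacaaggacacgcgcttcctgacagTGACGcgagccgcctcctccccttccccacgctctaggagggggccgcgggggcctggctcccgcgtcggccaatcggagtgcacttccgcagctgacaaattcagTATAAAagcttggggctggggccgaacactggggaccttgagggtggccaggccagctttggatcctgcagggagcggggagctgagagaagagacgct
Egr1: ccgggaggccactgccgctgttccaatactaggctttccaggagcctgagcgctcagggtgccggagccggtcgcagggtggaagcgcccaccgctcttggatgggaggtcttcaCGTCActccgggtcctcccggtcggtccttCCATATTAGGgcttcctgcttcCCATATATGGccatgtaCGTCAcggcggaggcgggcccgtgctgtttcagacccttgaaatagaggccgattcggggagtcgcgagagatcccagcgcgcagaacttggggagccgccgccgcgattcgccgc
Nfkbia: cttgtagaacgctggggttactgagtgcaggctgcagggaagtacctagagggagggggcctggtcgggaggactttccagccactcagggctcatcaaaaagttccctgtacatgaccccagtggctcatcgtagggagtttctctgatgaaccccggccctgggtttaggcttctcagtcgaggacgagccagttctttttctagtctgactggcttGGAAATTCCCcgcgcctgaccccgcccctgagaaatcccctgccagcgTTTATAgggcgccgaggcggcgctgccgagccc
They lie at chr19:40080876-40081175 (plus strand), chr18:26736828-26737127 (plus strand) and chr6:78597023-78597322 (minus strand). Egr1 held 2 serum response elements, 105 and 83 bases before its start, between TGACG words on the other strand 135 and 66 bases before it. Junb held TGACG 155 bases and TATAAA 49 bases before its start. Nfkbia held a kappaB site on the other strand 31 bases before its start and TATAAA on the other strand 17 bases after it. Of all promoters, 1.64% hold a serum response element and 4.18% a kappaB site. AGAACA is not in these windows either.

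Most glucocorticoid responsive genes measured had values above SNS too. Of 29 measured, 22 had a difference above 0 and 0 were called, against 44.2% and 0.0226% of all genes. The median was 0.47. With SNS replicate 2 as Cy3, 23 were above 0 and the median was 0.51. In rats without ACTH the median against SNS was 0.47 in BYS, 0.30 in BYP and -0.06 in BNS. The median of BYA minus BYS was -0.02. The mean level of the list was 1.01 to 1.19 in BYA and 0.581 to 0.635 in SNS, with no overlap. At 12 genes BYA lay wholly above SNS, and at 0 wholly below, against 4.27% and 2.17% of all genes. Nfkbia, the inhibitor of NF-kappaB and a target of both glucocorticoid and NF-kappaB, was 1.22, 1.74, 1.497 and 1.83 in BYA and 0.43, 0.42, 0.38 and 0.66 in SNS. The SNS samples lay close together and far below BYA. The difference was 1.11 ± 0.23 (adjusted p = 0.179), and against BNS it was 1.25 ± 0.25 (adjusted p = 0.0391).

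Fkbp5, which binds Hsp90 and holds the glucocorticoid receptor in a state of low affinity, was 1.72, 2.45, 2.85 and 2.98 in BYA and 1.37, 1.68, 1.36 and 1.59 in SNS, which gave 1.00 ± 0.25 (adjusted p = 0.218). BYA replicate 1 was only just above the highest SNS sample. Its differences from SNS in the other groups were 0.08 in BNS, 1.09 in BYS and 1.05 in BYP. Sgk1, a kinase induced by corticosteroids, differed by 0.66 ± 0.27 with no overlap, and Cdkn1a, a cell cycle inhibitor, by 0.31 ± 0.15 with overlap. Zbtb16, a transcription factor, at 0.37 ± 0.33, and Tsc22d3, the leucine zipper protein GILZ, at 0.09 ± 0.29, overlapped as well. Nr3c1, the receptor itself, differed by 0.0021 ± 0.19 (95% interval -0.40 to 0.41). Of the 18 genes of the stress axis measured, 10 were above 0 and 0 were called, against 44.2% and 0.0226% of all genes. The median was 0.0036. Crh, the releasing hormone that drives ACTH, differed by -0.09 ± 0.62, and its receptor Crhr1, which was dim, by -0.56 ± 0.23.

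Inflammatory genes held the largest values among the genes named here. Of 32 chemokines, cytokines and related genes measured, 22 were above 0 and 0 were called, against 44.2% and 0.0226% of all genes. The median was 0.37 (0.49 with SNS replicate 2 as Cy3). In the other groups the median against SNS was -0.16 in BNS, 0.14 in BYS and 0.17 in BYP. Ccl3 was called without SNS replicate 2. Ccl3, which microglia and macrophages release to attract other leukocytes, was 2.61, 3.38, 2.12 and 1.24 in BYA and 0.41, 0.53, -2.08 and -2.96 in SNS. SNS replicates 3 and 4, which shared an array, were far below SNS replicates 1 and 2. The difference was 3.09 ± 0.80 (adjusted p = 0.224, or 0.0356 without SNS replicate 2), and against BNS it was 4.96 ± 0.84 (adjusted p = 0.0201). Ccl3 in BNS itself differed from SNS by -1.87 ± 0.80, while BYS differed by 2.13 and BYP by 1.80.

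Ccl2, a chemokine that draws monocytes, was 1.27, 2.11, 0.47 and 0.12 in BYA and -2.16, -2.46, -2.24 and -3.18 in SNS. All SNS samples were dim, at percentile 6.27 of the genes, and all BYA samples were above them. The difference of 3.47 ± 1.18 did not pass (95% interval 0.98 to 5.95, adjusted p = 0.261). Icam1, which binds leukocytes to endothelium, was 0.69, 1.27, 0.89 and -0.97 in BYA and between -1.59 and -1.12 in SNS, with a difference of 1.78 ± 0.52. BYA replicate 4 was only just above SNS.

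Of 25 genes of MHC class II and the interferon response, 21 were above 0, with a median of 0.39 and 0 called. Over all genes 44.2% were above 0 and 0.0226% were called. Gbp2, an interferon-induced GTPase, differed by 1.66 ± 0.48 with no overlap, and Cd74, a chaperone of MHC class II, by 0.45 ± 0.49 with overlap. Of 27 complement genes 21 were above 0, with a median of 0.18 (0.35 with SNS replicate 2 as Cy3) and 0 called. C1qa, of the first component, was between 2.92 and 3.72 in BYA and between 2.45 and 2.77 in SNS, a difference of 0.82 ± 0.23 (adjusted p = 0.236). C3, the central component, differed by 0.98 ± 0.44, and C5ar1, the receptor that PMX53 blocks, by 1.06 ± 0.31 with overlap, and lay at percentile 0.0226 of the genes in SNS.

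Most markers of blood had values above SNS as well, and those of microglia were mixed. Of 10 blood cell genes measured, 9 were above 0, with a median of 0.73 (0.69 with SNS replicate 2 as Cy3), and their mean level lay between 0.946 and 1.67 in BYA and between 0.418 and 1.04 in SNS. Hba-a1, a haemoglobin chain, was 6.11, 6.41, 6.45 and 7.05 in BYA and 5.59, 5.32, 5.95 and 5.998 in SNS, and Slc4a1, the anion exchanger of red cells, differed by 1.17 ± 0.28. S100a9 of neutrophils was dim, at percentiles 13.3 and 8.77. Of 25 microglial and macrophage genes 16 were above 0, with a median of 0.16, and their mean level lay between 0.203 and 0.448 in BYA and between -0.0559 and 0.241 in SNS, with overlap. Aif1 differed by 0.38 ± 0.22, P2ry12 by 0.04 ± 0.24 and Cx3cr1 by -0.37 ± 0.20, and the groups overlapped at all 3 of these microglial markers. The part of blood and microglia in the values above was not tested, and in tissue RNA more cells of a type cannot be told apart from more RNA per cell.

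Genes of arcuate neurons gave a median near 0. Of 46 peptides and receptors measured, 21 were above 0 and 0 were called, against 44.2% and 0.0226% of all genes. The median was -0.02. Pomc was 4.72, 5.66, 5.20 and 5.34 in BYA and 4.35, 4.93, 4.57 and 4.19 in SNS, with overlap, and differed by 0.695 ± 0.23 (adjusted p = 0.261). Its difference was 0.75 in BNS, 0.26 in BYS and 0.63 in BYP. Agrp differed by 0.08 ± 0.27, Npy by -0.0037 ± 0.20, Kiss1 by 0.06 ± 0.27, Ghrh by 0.07 ± 0.19 and Sst by 0.17 ± 0.20, and the groups overlapped at all 5. Cartpt, a satiety peptide, differed by 0.65 ± 0.34 and Th, which makes dopamine, by 0.30 ± 0.21. Gal, the peptide galanin, was between 4.36 and 4.55 in BYA and between 3.77 and 4.16 in SNS. It differed from SNS by 0.42 ± 0.16 (adjusted p = 0.269) and from BNS by 0.93 ± 0.17 (adjusted p = 0.0266). The receptors Mc3r and Mc4r, through which melanocortins act in the brain, differed by -0.03 ± 0.37 and -0.24 ± 0.23.

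No gene was called in the lists of transmission, against the background of 0.0226%. Over all genes 55.8% were below 0 and the median was -0.05. Of 24 glutamate receptors 15 were below 0 (median -0.07), and of 27 genes of GABA 15 (median -0.02), counts near that background. Of 19 genes of acetylcholine 14 were below 0 (median -0.29), of 15 of dopamine 9 (median -0.17) and of 13 of serotonin 10 (median -0.54). These 3 medians were -0.04, -0.01 and -0.06 with SNS replicate 2 as Cy3. The median over all genes was then 0.02, and 7059 of 13292 genes were above 0. Gad2, which makes GABA, was 1.35, 2.29, 2.10 and 2.18 in BYA and 1.06, 1.69, 0.35 and 0.51 in SNS, a difference of 0.99 ± 0.29 (adjusted p = 0.236), and it was higher in BYA than in BYS by 0.99 (adjusted p = 0.048). Grin2d, an NMDA receptor subunit, was 4.14, 4.09, 5.24 and 4.76 in BYA and between 5.25 and 5.32 in SNS, a difference of -0.73 ± 0.27. Htr2c, a serotonin receptor of Pomc neurons, differed by -0.66 ± 0.24 with overlap. Of 24 voltage-gated calcium channel genes 20 were below 0 (median -0.14) and of 77 potassium channel genes 51 (median -0.18), and these medians were -0.02 and -0.03 with SNS replicate 2 as Cy3. Nsf, which recycles SNARE complexes, differed by -0.91 ± 0.34.

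The difference followed the level of the gene under the labels as they stand. With the genes split by level into 10 bins of equal size, its median ran from -0.52 in the dimmest bin to 0.18 in the brightest. With SNS replicate 2 as Cy3 the same medians ran from -0.02 to 0.05, without that sample from -0.14 to 0.11, and after cyclic loess from -0.05 to 0.01. The lists of serotonin and acetylcholine genes lay among the dim genes, at median percentiles 15.3 and 30.8, where this median was below 0. Of 80 cytosolic ribosomal proteins 61 were above 0, with a median of 0.16 that became 0.01 with SNS replicate 2 as Cy3. Of 81 genes of the respiratory chain 57 were above 0, and the median of 0.13 became -0.0046. Cell cycle genes had a median of -0.20 that became -0.07.

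**Figure D4:**
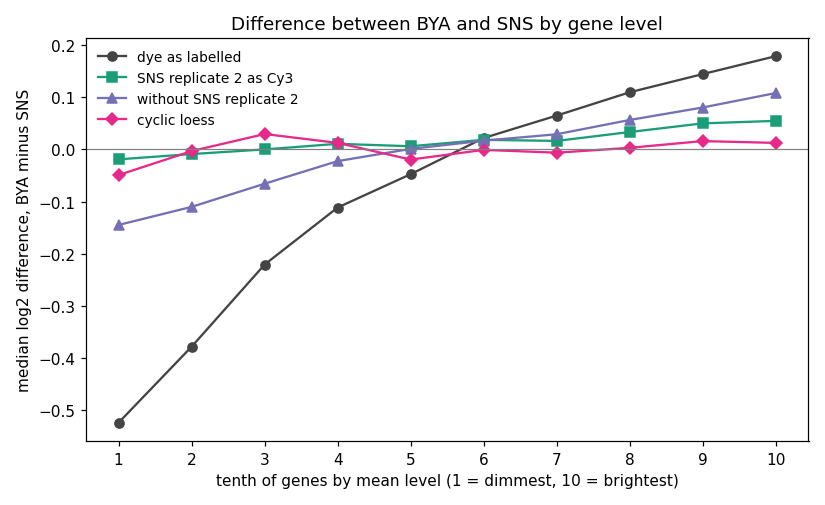
Median log2 difference, BYA minus SNS, in each of 10 equal bins of the 13292 genes by mean level, under 4 settings (lines). With the dye labels as they stand the median climbs from -0.52 in the dimmest bin to 0.18 in the brightest, and the other 3 settings stay between -0.14 and 0.11.

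The lists of glial and vascular genes had medians of either sign. Of 21 oligodendrocyte and myelin genes 13 were above 0 (median 0.10), of 25 astrocyte genes 16 (median 0.08) and of 23 endothelial and pericyte genes 7 (median -0.15). Mbp, Mog and Mobp, 3 myelin proteins, differed by -0.05 ± 0.32, 0.52 ± 0.60 and 0.38 ± 0.62, all with overlap. Tf, transferrin, which oligodendrocytes make, was 2.54, 3.19, 2.83 and 3.23 in BYA and 1.82, 1.99, 1.25 and 2.01 in SNS, a difference of 1.15 ± 0.28 (adjusted p = 0.192). Gfap, the filament of reactive astrocytes, differed by 0.65 ± 0.46, and Hspb1, a small heat shock protein, was 1.38, 2.68, 1.54 and 1.47 in BYA and 0.10, 0.79, -1.21 and -0.43 in SNS, a difference of 1.84 ± 0.50 (adjusted p = 0.236). Slc2a1, the glucose transporter of the blood-brain barrier, differed by 0.43 ± 0.13, and the groups did not overlap at Tf, Gfap, Hspb1 or Slc2a1. Of 39 proteasome subunits 31 were above 0, with a median of 0.23 (0.14 with SNS replicate 2 as Cy3).

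**Figure D5:**
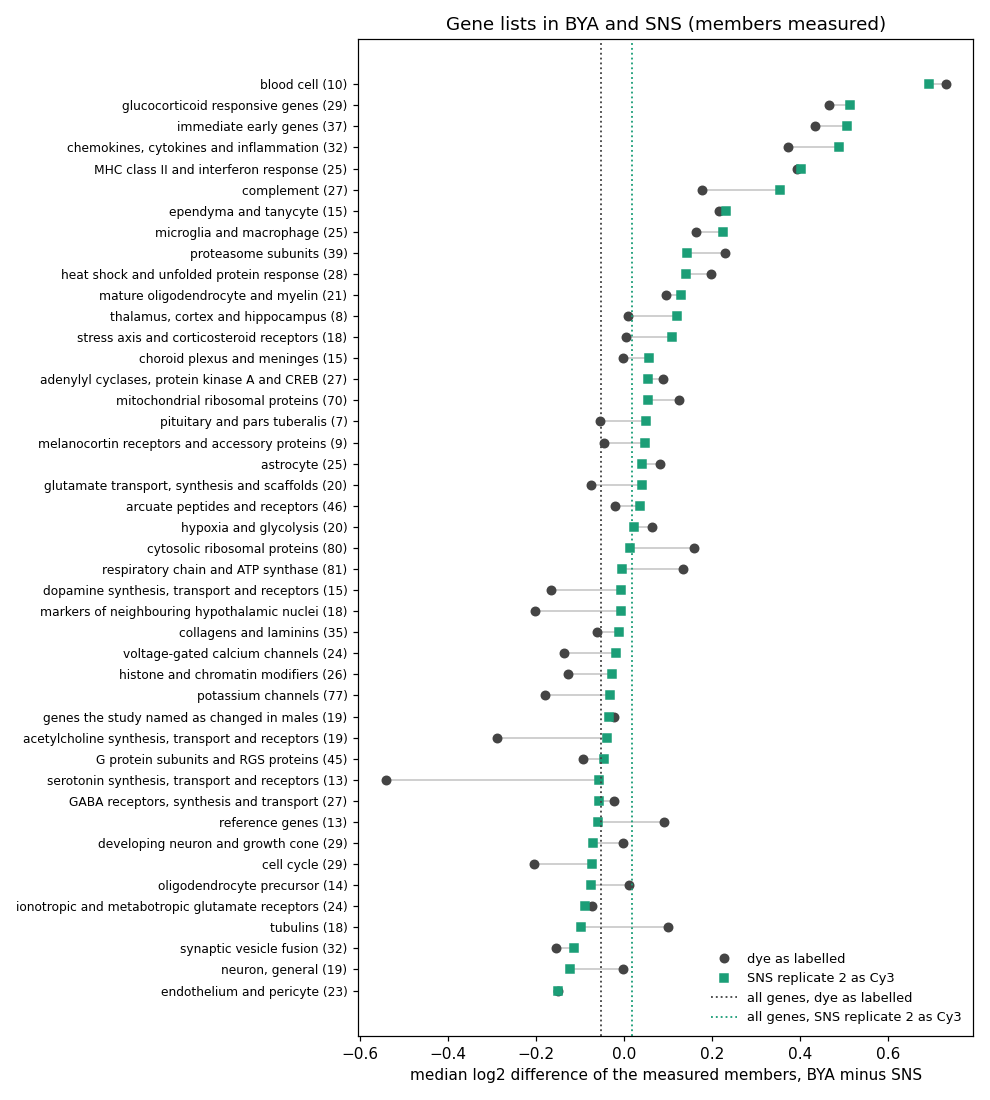
Median log2 difference, BYA minus SNS, of 44 gene lists with the number of members measured, with the dye labels as they stand (circles) and with SNS replicate 2 as Cy3 (squares), beside the medians over all genes (dotted lines). The lists of blood, glucocorticoid responsive and immediate early genes lie farthest to the right under both settings, and the list of serotonin genes moves from -0.54 to -0.06.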

How the data were processed

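RNA of 20 male arcuate nuclei, 4 per group, was hybridised to 2-colour Agilent rat arrays, with 2 samples on 9 arrays and 1 on the other 2. The authors scanned and extracted them with Agilent Feature Extraction 10.7.3.1, per the labels, and deposited an intensity per spot and sample on a linear scale. No source used here states the background correction, filter or normalization of the deposited intensity values, and their unit is relative.

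Spots were named through the platform annotation and RefSeq's rat gene symbols (12608 of 44254 had no name). Values were taken to log2, spots of a gene were averaged over spots complete in all samples (otherwise the most complete spot, 799 genes), and each sample's median over complete genes was subtracted. limma 3.58.1 in R 4.3.3 fitted 5 groups, the labelled dye and the array as a random block (correlation 0.436), with Benjamini-Hochberg adjustment over 13292 genes. p-values measure the spread between these samples. Data were simulated with these arrays and labelled dyes, but with no slide effect and no shift between groups that follows gene level. In them 3 of 50 genes changed by 0.5 log2 units, 34 of 50 changed by 1 and 49 of 50 changed by 2 were recovered. There were 12 calls among unchanged genes. For arrays, their number limits the precision.

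Named genes are the called ones, those of smallest p up to 10 a direction, the called members or the member of smallest p of each of 44 lists, and a set of genes fixed for their role (Npas4 was not tested). Members and lists were chosen with earlier results of these data known. Alternatives changed the block, dye, centring, normalization, filter, spot choice and test, and left out samples and arrays. Promoters are RefSeq's (GRCr8), matched by symbol for 73 of 86 named genes. Plots used matplotlib 3.10.9.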

Additional observations from a re-analysis of the deposited data

Results flagged for a closer look

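Several genes were flagged because their difference from SNS in BYA was unlike that in another group, by the limma contrast between BYA and that group, adjusted over all genes. Against BNS, BYA was lower at Tubb2b (-0.946), Dhrs7 (-0.932), Vps4b (-1.03) and Vegfc (-0.854), and higher at Pth2 (1.5), Lrrc25 (1.38), Nfkbia (1.25), Arc (1.33), Gal (0.932) and Ccl3 (4.96). These are 10 of the 86 named genes, where 0.241% of all genes were called in that contrast. Many named genes were chosen for a small p in BYA against SNS, which shares the BYA samples. The share among them is therefore not a test. Against BYP, BYA was lower at Tubb2b (-1.02), Dhrs7 (-0.987), Vps4b (-1.03) and Slc35a4 (-0.884), and these 4 were all the genes called in that contrast. All 4 were among the genes fixed for their role, so that they were named is not a result.

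Against BYS, where 8.67% of all genes were called, BYA was lower at Tubb2b (-0.608), Dhrs7 (-0.763), Cdh3 (-1.08), Chrnb2 (-0.939), Nusap1 of the mitotic spindle (-0.478) and Psmb11, a proteasome subunit (-1.29). It was higher at Lrrc25 (0.931), Gad2 (0.992), Crem (0.790) and Cox7c of respiratory complex IV (1.03). BYA replicate 2 had no value at Psmb11. Cdh3, Chrnb2 and Psmb11 were dim.

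Single samples far from the other 3 of their group were found in 7 of 171 groups of 4, and chance alone flags about 1 in 20 groups. Hspb1 was 2.68 in BYA replicate 2, where the other 3 lay between 1.38 and 1.54. Agrp was 5.16 in BYA replicate 1 (others 5.78 to 5.88), Cd74 was -1.02 in BYA replicate 1 (others -0.175 to -0.0251) and Mbp was 2.58 in BYA replicate 3 (others 3.19 to 3.25). Sst was 5.21 in SNS replicate 1 (others 5.46 to 5.51). Neurod2 and Crebbp, both dim, were -3.59 and -3.63 in SNS replicate 4, where the other 3 lay between -2.20 and -2.06 and between -2.31 and -2.15.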

How the results depend on the processing

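The count of genes called was 3 with the design as written and moved with most settings. It was 242 (129 higher) with no array block and 141 (101 higher) with no dye term. It was 18 after quantile normalization, 12 with a pseudocount of 0.1, 11 after cyclic loess, 9 without the dimmest 25% of genes, 8 after cyclic loess with SNS replicate 2 as Cy3, and 7 over complete genes only. It was 6 with centring on percentile 75, 6 with limma's trend and robust options, and 5 with SNS replicate 2 as Cy3. It was 1 with no centring, 1 with centring on complete spots, 1 where 3 values were asked of BYA and SNS only, and 1 on the brightest spot of each gene. In limma no gene was called with BYA and SNS alone or with slides as the random block, nor in the Cy3 samples alone or the Cy5 samples alone, where 4 or fewer samples enter each comparison. At an unadjusted p under 0.05 these settings gave 919, 1219, 1085 and 2535 genes. The methods' t-test with a fixed 1.5-fold limit and no adjustment gave 240 genes (176 higher). That limit was set here, whereas the paper computed a limit for each gene, so this is not a count by its criterion. With Benjamini-Hochberg adjustment and no fold limit the t-test gave 0 genes, with 957 at an unadjusted p under 0.05. In limma the count was 367 (41 higher) without the array of BYA replicates 1 and 2. It was 19 (1 higher) without that of BYA replicates 3 and 4. Leaving out 1 sample, it ran from 1, without SNS replicate 3 for example, to 11, without SNS replicate 2. The cause of these shifts was not tested. Centring on complete spots and cyclic loess with SNS replicate 2 as Cy3 were chosen after seeing the data.

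Mon2 stayed called in 29 of 34 alternatives, Tubb2b in 17 and Dhrs7 in 16, each with the same direction in all 34. With the replicate block the count was 3, and 2 of the 3 genes, Mon2 and Tubb2b, were shared with the design as written. Samples of a replicate number deviated together at replicates 1, 3 and 4 (correlations of 0.424, 0.532 and 0.507) but not at replicate 2 (0.0504). Samples of unlike number but the same labelled dye did so too. The correlation was 0.498 for BYA 3 with SNS 1, 0.371 for BYA 1 with SNS 3 and 0.536 for BYA 2 with SNS 4. It was -0.0712 for BYA 4 with SNS 2. The numbers were therefore not taken to pair the samples.

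Of 86 named genes, 13 changed sign under some alternative, none of them called in the design as written, though Tma7 was called with its usual sign in 9. With no array block the values were Nr3c1 -0.0052. With BYA and SNS alone the values were Npy 0.00049. With SNS replicate 2 as Cy3 the values were Mc3r 0.049, Nr3c1 -0.011 and Tsc22d3 -0.0066. With no dye term the values were Mc3r 0.0082 and Nr3c1 -0.014. In Cy3 samples alone the values were Kiss1 -0.13, Crh 0.12, Nr3c1 -0.19 and Tsc22d3 -0.17. In Cy5 samples alone the values were Npy 0.054 and Mc3r 0.12. With the replicate block the values were Nr3c1 -0.016. With no centring the values were Nr3c1 -0.041. Centred on percentile 75 the values were Agrp -0.041, Kiss1 -0.061, Ghrh -0.048, Nr3c1 -0.11 and Tsc22d3 -0.028. After quantile normalization the values were Agrp -0.079, Sst -0.024, Crh 0.13 and Tsc22d3 -0.063. After cyclic loess the values were Agrp -0.11, Ghrh -0.012, Sst -0.014, Crh 0.079 and Tsc22d3 -0.046. With local trends removed the values were Kiss1 -0.0099 and Mc3r 0.089. With a pseudocount of 0.1 the values were Nr3c1 -0.0048 and Mbp 0.0048. On the brightest spot the values were Tma7 0.029, Htr2c 0.19, Npy 0.070, Crh 0.085, Nr3c1 -0.034, Cdkn1a -0.12 and Mbp 0.44. Without the array of BYA replicates 1 and 2 the values were Npy 0.18, Kiss1 -0.12, Crh 0.060 and Tsc22d3 -0.030. Without the array of BYA replicates 3 and 4 the values were Agrp -0.093, Ghrh -0.15, Mc3r 0.14, Nr3c1 -0.17 and Mbp 0.084. Without the array of SNS replicates 3 and 4 the values were Npy 0.075, Kiss1 -0.093, Crh 0.17 and Mbp 0.052. Centred on complete spots the values were Nr3c1 -0.028. After cyclic loess with SNS replicate 2 as Cy3 the values were Sst -0.0061, Mc3r 0.041, Nr3c1 -0.019 and Tsc22d3 -0.054. By the methods' t-test the values were Nr3c1 -0.0052. Leaving out 1 sample, the values ran from -0.031 to 0.22 for Agrp, -0.070 to 0.084 for Npy, -0.067 to 0.23 for Kiss1, -0.0088 to 0.19 for Ghrh, -0.38 to 0.25 for Crh, -0.19 to 0.10 for Mc3r, -0.11 to 0.065 for Nr3c1, -0.050 to 0.28 for Tsc22d3, and -0.19 to 0.11 for Mbp. All other named genes kept their direction in the alternatives that gave a value. List medians moved by more than the spread between replicates in 56 of 1496 cases. Dim genes limit the precision, since the arrays hold 4 samples a group and the shift with level described above ran over all 10 bins and was largest in the dimmest.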
